A study of Mus musculus with 12 samples.

Results

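The genes described here are 10 heat shock genes of the cytosol and the mitochondrion, listed by symbol: Hspa1a, Hspa1b, Hspa8, Hsph1, Dnajb1, Hsp90aa1, Hsp90ab1, Hspe1, Hspd1 and Hsf1. All 10 were found in both deposited tables, among 45706 genes listed for blastocysts and 13009 genes listed for embryonic stem (ES) cells. The study compared mice with and without Dis3l. Its protein is the nuclease of the exosome in the cytoplasm, where this complex breaks down RNA starting at the 3′ end. The labels list 4 groups of 3 samples each: blastocysts with the genotype Dis3L KO, blastocysts with the genotype Dis3L WT, ES cells with the genotype Dis3L KO and ES cells with the genotype Dis3L WT. All embryos came from females given PMSG and hCG and were dissected 96 h after hCG, at the blastocyst stage, which precedes implantation. Each blastocyst library was made from a single embryo by Tn5 tagmentation of cDNA. ES cell lines were derived from blastocyst outgrowths and kept in medium with LIF on inactivated embryonic fibroblasts, and RNA depleted of ribosomal RNA went into stranded libraries. The labels do not say which allele the knockout carries or whether the ES cell samples are separate lines, so p-values measure only the spread between these samples.

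Heat shock proteins are chaperones that keep other proteins folded. HSP70 proteins bind exposed stretches of unfolded protein with the help of HSP40 cochaperones and exchange factors, HSP90 proteins act later on kinases and hormone receptors, and HSP60 with its lid HSP10 folds proteins imported into the mitochondrion. Most of these genes are transcribed in unstressed cells as well, and heat or misfolded protein raises the inducible ones through the transcription factor HSF1, which binds as a trimer to inverted repeats of the bases GAA.

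Neither table holds a value per sample, and neither states the direction of the comparison. Signs are therefore given as deposited, and an error marked SE is the deposited standard error of a log2 fold change. The deposited means are sums of whole reads over count columns, which allowed the reads of many genes to be recovered column by column, with 3 columns on each side of the blastocyst comparison and 2 on each side of the ES cell comparison. The labels list 6 ES cell samples, so 4 columns stand behind every ES cell value, and which samples they come from is not stated. The positive side is the one whose higher reads give a positive log2 fold change. Columns were not assigned to genotypes or samples. With only 2 or 3 columns on a side, sides often fail to overlap without any difference between them. The share of all genes whose sides do not overlap was not computed, so non-overlap is given as a description only. Size factors, the relative depths of the columns, ran from 0.695 to 1.62 in blastocysts and from 0.759 to 1.25 in ES cells, and the means added up to 4608914 and 1513923 normalised reads. Dis3l itself had 26, 8 and 0 reads in the positive and 10, 4 and 8 reads in the negative columns of blastocysts, and 14 and 8 against 39 and 39 reads in ES cells. The columns of the sides overlapped in blastocysts and did not in ES cells, where the authors' deposited table put the adjusted p of Dis3l at 0.445. The labelled material showed in its markers: in blastocysts the trophectoderm genes Cdx2 and Krt18 had means of 1866 and 7678 in the authors' deposited table, and in ES cells the pluripotency genes Pou5f1 and Sox2 had means of 962 and 485. Fibroblast genes were also read in ES cells, such as Fn1 at 1105 and Col3a1 at 259, while Col1a1, Col1a2, Col3a1, Postn, Lum and Dcn were listed at 0 in blastocysts. Fn1 was also read in blastocysts, at 912, and Thy1 at 9.86, so Fn1 does not set feeder cells apart here.

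No heat shock gene passed the authors' test at an adjusted p-value under 0.05, with 0 of 10 called in blastocysts and 0 of the 9 that have an adjusted p-value in ES cells. Over all genes the authors' deposited tables called 15 of 15209 genes in blastocysts, 0.0986%, and 28 of 10739 in ES cells, 0.261%. The members and the gene lists below were chosen with earlier results of these data known. Their counts are therefore set beside the shares over all genes as a description only. At an unadjusted p-value under 0.05, 4 of 10 members were counted in blastocysts, against 6.21% of all genes tested. These were Hspa8, Hsp90aa1 and Hsph1 on the negative side, where 3.53% of all genes lay, and Hspa1b on the positive side, where 2.68% lay. In ES cells the single member at that unadjusted threshold was Hsph1, on the negative side as in blastocysts, against 5.62% of all genes and 3.42% for that direction. The members' median log2 fold change in the authors' deposited tables was -0.28 in blastocysts and -0.05 in ES cells, beside -0.04 and 0.00 over all genes tested. Among genes with a mean of at least 50, the median was 0.00 in both materials. The median SE in blastocysts was 0.52 for those genes and 0.92 over all genes tested. The share of those genes at an unadjusted p-value under 0.05 was not computed. In each material 7 of 10 members were negative and 3 positive, while 51.7% and 50% of all tested genes were negative. For the 8 members with a mean of at least 50 in blastocysts, the SE in the authors' deposited table ran from 0.25 to 0.61. Changes well above the SE could go uncalled. Hspa8, at -0.80 ± 0.27 (SE), had an adjusted p of 0.385 in the authors' deposited table. RNA from whole embryos or cultures cannot tell fewer cells of a type from less RNA per cell.

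**Figure D1:**
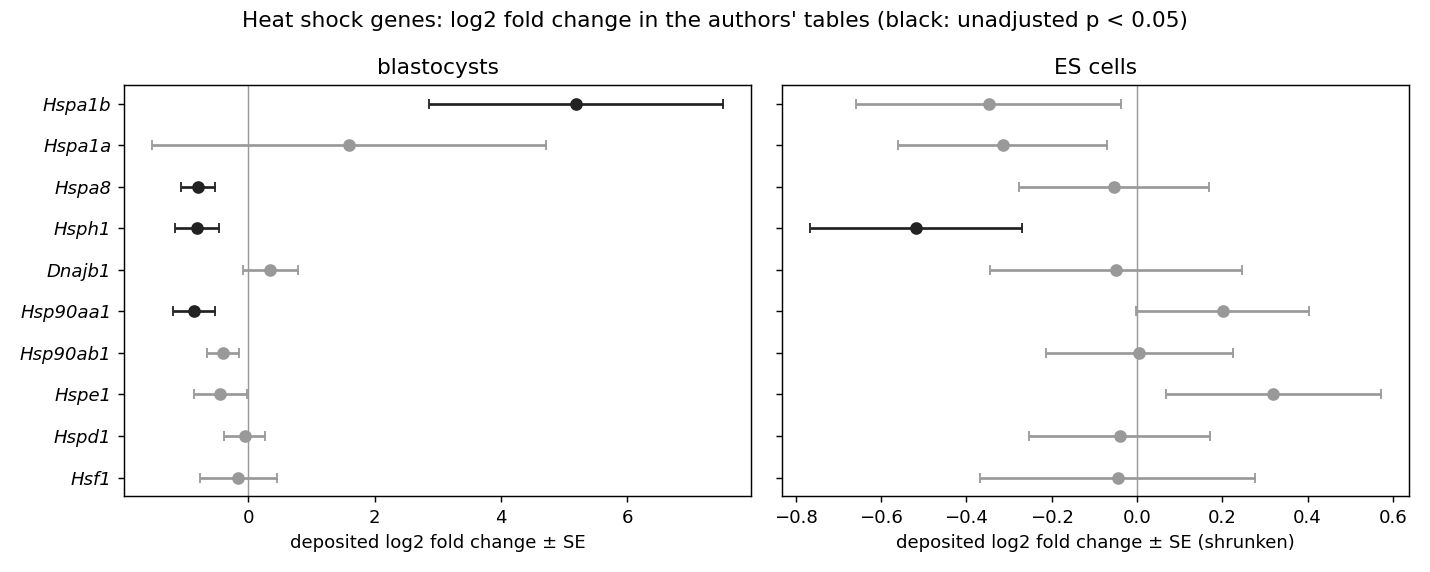
Log2 fold change of each of the 10 heat shock genes in the authors' deposited tables (dot) with its standard error (bar), in blastocysts on the left and in ES cells on the right, on separate scales because ES cell values were shrunken towards 0. In black are the genes at an unadjusted p-value under 0.05, which are Hspa1b at 5.19, Hspa8 at -0.80, Hsph1 at -0.81 and Hsp90aa1 at -0.86 in blastocysts and Hsph1 at -0.52 in ES cells.

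By level, 3 genes led in both materials. Per kilobase of the longest transcript, the authors' deposited table put the mean of Hsp90ab1 at 4916 in blastocysts, rank 9 of 13308 protein-coding genes read, followed by Hspa8 at 2684 and Hsp90aa1 at 2098, ranks 24 and 31. In ES cells the order was different, with Hsp90aa1 first at 1700 per kilobase, rank 11 of 12997, then Hspa8 at 918, rank 32, and Hsp90ab1 at 591, rank 72. Hspd1 and Hspe1 came next in both, at 553 and 223 per kilobase in blastocysts and at 240 and 183 in ES cells. Hsph1 had 184 and 44.6, Dnajb1 59.2 and 24.1, and Hsf1 37.3 and 14.6 per kilobase in blastocysts and ES cells. The inducible pair stood last, Hspa1b at 2.31 and 5.00 and Hspa1a at 1.29 and 1.57 per kilobase, below more than 73% of the protein-coding genes read in that material. In the ES cell columns, for which every member's reads were recovered, neighbours in this order did not overlap except Hspd1 with Hspe1, Hsf1 with Hspa1b and Hspa1b with Hspa1a. Among the 5 members solved in blastocysts, Dnajb1 overlapped with Hsf1 and Hspa1b with Hspa1a. Levels of the materials come from separately normalised tables and different kinds of library and are set side by side only.

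**Figure D2:**
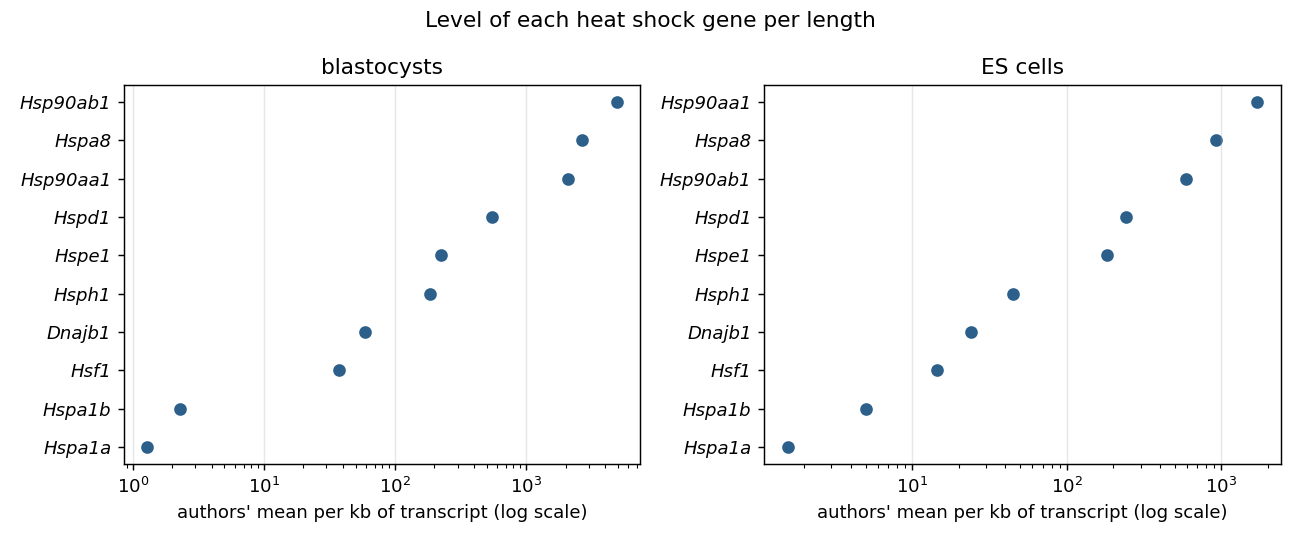
Mean normalised reads per kilobase of the longest transcript (log scale) of the 10 heat shock genes in blastocysts (left) and ES cells (right), from the authors' deposited means and GENCODE lengths. Hsp90ab1 leads in blastocysts at 4916 and Hsp90aa1 in ES cells at 1700, and Hspa1a is lowest in both at 1.29 and 1.57.

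Hspa1a and Hspa1b encode the stress-inducible HSP70 of the cytosol. They lie 9951 bases apart on the minus strand of chromosome 17, Hspa1a from 34969190 to 34972156 and Hspa1b from 34956436 to 34959238 (GRCm38), each as 1 exon. Their RefSeq promoter windows on GRCm38.p6, from 250 bases before to 50 after the start, have 300 bases each and differ at 4 of them. The 30 bases around the only inverted GAA repeat in the 250 bases before each start are shown because the pair shares them letter for letter, from chr17:34972242-34972271 for Hspa1a and chr17:34959324-34959353 for Hspa1b, 5′ to 3′ on the minus strand, with the repeat in capitals.
Hspa1a: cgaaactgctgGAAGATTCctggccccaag
Hspa1b: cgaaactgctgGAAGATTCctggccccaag
The repeat, GAANNTTC, begins 104 bases before the start in both and occurs in the 250 bases before the start in 6.69% of 32851 RefSeq promoters. With TTCNNGAA, its other order, the share was 12.8%, and each reads the same on both strands. A match describes the letters and is not a measured binding site.

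In blastocysts Hspa1b was read almost entirely on the positive side, at a very low level. Its positive columns held 22, 12 and 9 reads and its negative columns 1, 0 and 0. The sides did not overlap, and relative to depth the reads were 42.3 times as many on the positive side, with a 95% interval from 7.20 to 1710 that covers counting error only. The authors' deposited table gave a log2 fold change of 5.19 ± 2.33 (SE), an unadjusted p of 0.0260 and an adjusted p of 0.737. The log2 ratio of the recovered side means was 5.95. A negative binomial fit to these reads returned the deposited 5.19 when fitted counts were held at or above 0.5 reads, and 5.56 without that floor. Hspa1a did not share this split: it had 10, 0 and 9 reads in the positive and 9, 0 and 0 in the negative columns, so that its sides overlapped. For Hspa1a the authors' deposited table listed a log2 fold change of 1.60 ± 3.12 (SE) and an adjusted p of 0.969. Of the 50-base windows of the Hspa1b transcript, 62.3% also occur in Hspa1a, and 58.8% of those of Hspa1a occur in Hspa1b, so reads of the copies could be divided between them by the counting. Summed over both genes and divided by the size factor, the columns held 22.8, 12.2 and 20.6 normalised reads on the positive and 6.18, 0 and 0 on the negative side. The sums still did not overlap. Hspa1l, the third gene of this cluster, was listed at 0 in blastocysts.

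**Figure D3:**
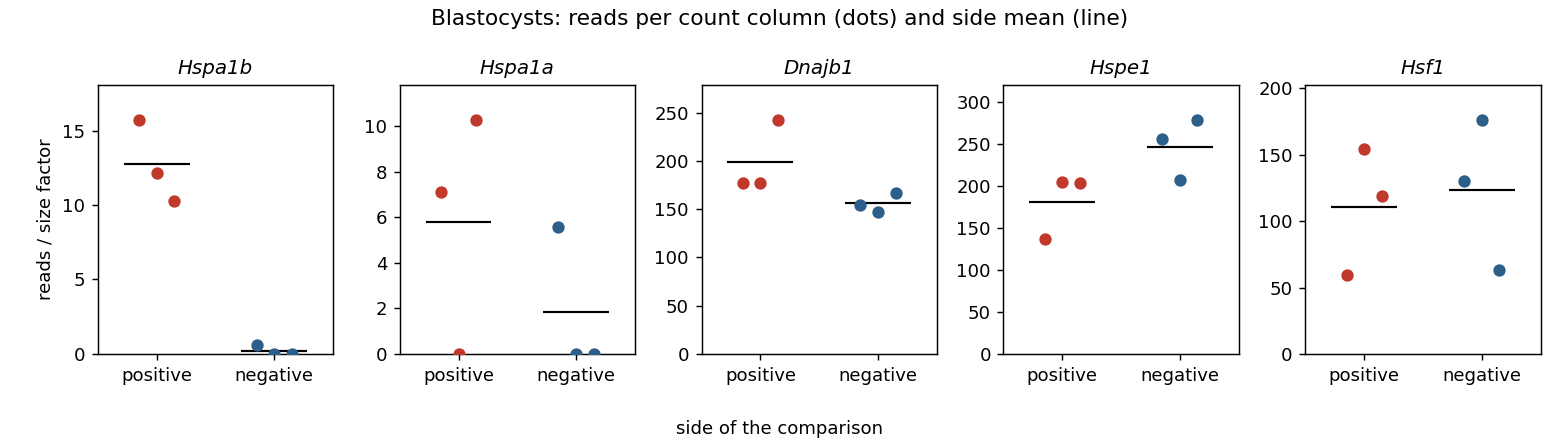
Reads divided by the size factor in each of the 6 blastocyst count columns (dots) for the 5 members whose reads could be recovered, by side of the comparison, with the side mean as a line. The positive columns of Hspa1b lie between 10.3 and 15.7 and its negative columns between 0 and 0.62, while the columns of Hspa1a and Hsf1 overlap.

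In ES cells the inducible pair was higher on the negative side and varied most within a side. The genotype of each side is not stated, so the opposite signs in the materials do not show opposite effects. Hspa1b had 17 and 3 reads in the positive and 7 and 33 in the negative columns. Hspa1a had 4 and 0 reads against 4 and 12. The summed normalised reads of the pair were 16.8 and 3.95 on the positive and 10.5 and 43.5 on the negative side, which overlap. A single negative column was thus the highest for both genes, and without it Hspa1b had a log2 ratio of 0.40 in place of -1.14. The same column held the most fibroblast reads: summed over the 8 fibroblast markers, it had 2718 normalised reads, against 1322 in the other negative column and 1492 and 1121 in the positive ones. Without Fn1, which was read in embryos too, the other 7 summed to 1536 in that column, 252 in the other negative one and 237 and 208 in the positive ones. Col3a1 alone held 865 of the 1536. Not every marker followed the sum. Thy1 was lowest in that column, at 14.5 against 28.5 in the other negative one and 30.3 and 25.0 in the positive ones. Fn1, at 1182 there, was below the first positive column, at 1255. The 8 pluripotency markers summed to 5108 and 4207 on the positive and 6417 and 5756 on the negative side. The part of feeder cells in the values of Hspa1a and Hspa1b was not tested. In the authors' deposited table Hspa1b had a shrunken log2 fold change of -0.35 ± 0.31 (SE) and an unadjusted p of 0.262. Hspa1a had -0.32 there, with an unadjusted p of 0.199 and no adjusted one.

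Hspa8 encodes HSC70, the HSP70 made in unstressed cells. In blastocysts it had the lowest p-value of the members: the authors' deposited table gave a mean of 8477 and a log2 change of -0.80 ± 0.27 (SE), an unadjusted p of 0.00311 and an adjusted p of 0.385. With equal numbers of columns on each side, that mean and fold change correspond to side means of about 6180 and 10775 normalised reads, higher on the negative side. Reads per column were not solved for the 5 blastocyst members with means above 220, namely Hspa8, Hsp90aa1, Hsp90ab1, Hsph1 and Hspd1. In ES cells the Hspa8 columns held 3545 and 2160 reads on the positive side, against 3837 and 2355, or 2830 and 2844 against 3648 and 2276 after normalisation. The negative columns enclosed the positive ones. The authors' deposited table put the ES cell log2 fold change of Hspa8 at -0.05 ± 0.22 (SE).

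Hsph1 encodes HSP110, a relative of HSP70 that acts as its nucleotide exchange factor, and it was the only member past the unadjusted threshold in both materials. For blastocysts the authors' deposited table gave a mean of 876 and a log2 change of -0.81 ± 0.35 (SE), an unadjusted p of 0.0186 and an adjusted one of 0.674. The corresponding side means were 636 and 1117. In ES cells its columns held 237 and 110 reads on the positive side, against 271 and 268, or 189 and 145 against 258 and 259 normalised reads. Both negative columns were above both positive ones. The authors' deposited table gave ES cells a shrunken log2 fold change of -0.52 ± 0.25 (SE), an unadjusted p of 0.0367 and an adjusted one of 0.825. The log2 ratio of the recovered reads was -0.63, and -0.45 to -0.83 when each column was left out. Because neither table states which genotype is on which side, a negative sign in both does not show that the genotypes moved alike. No 50-base window of its transcript recurs in another annotated transcript. Its promoter holds the other order of the repeat, TTCNNGAA, a motif of 7.17% of the promoters. The repeat begins 33 or 54 bases before the start in its 2 RefSeq windows. It still lies inside the annotated gene, whose 5′ end is at 149636376. The 30 bases around the repeat on the minus strand (chr5:149636351-149636380, GRCm38.p6) are shown with it in capitals, for comparison with the inducible pair.
Hsph1: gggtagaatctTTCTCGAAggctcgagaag

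Dnajb1 encodes an HSP40 cochaperone that delivers substrates to HSP70. In blastocysts it had 248, 174 and 212 reads in the positive and 249, 132 and 116 in the negative columns, or 177, 177 and 242 against 154, 147 and 167 normalised reads. The sides did not overlap, but the difference was small beside its error: the authors' deposited table gave a log2 fold change of 0.35 ± 0.43 (SE) and an adjusted p of 0.905. In ES cells its 4 columns lay close together, with 68.7 and 72.4 normalised reads on the positive and 75.1 and 72.5 on the negative side, the nearest of them less than 1 read apart. The 95% interval of the ES cell log2 fold change in the authors' deposited table, 1.96 standard errors to either side of -0.05, ran from -0.63 to 0.53. The 250 bases before the start in either of its RefSeq promoter windows hold no inverted GAA repeat of either order.

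Of the genes for cytosolic HSP90, Hsp90aa1 encodes the alpha form, which heat induces, and Hsp90ab1 the beta form, made at all times. In blastocysts the authors' deposited table gave Hsp90aa1 a mean of 6883 and a log2 change of -0.86 ± 0.34 (SE), an unadjusted p of 0.0112 and an adjusted one of 0.592. The corresponding side means were 4886 and 8881. Hsp90ab1, at a mean of 12389, had a log2 fold change of -0.40 ± 0.25 (SE) and an unadjusted p of 0.106 in the authors' deposited table, with side means of 10680 and 14097. Both were higher on the negative side, and neither passed after adjustment. In ES cells Hsp90aa1 had 7371 and 4660 reads against 4646 and 6080, or 5885 and 6136 against 4417 and 5875 normalised reads. The sides did not overlap there, by a margin of about 10 normalised reads between the nearest columns, and the authors' deposited table gave 0.20 ± 0.20 (SE). Hsp90ab1 had 2238 and 907 reads against 1592 and 1509. Its positive columns, at 1787 and 1194 normalised reads, enclosed the negative ones at 1514 and 1458, and the log2 fold change in the authors' deposited table was 0.01 ± 0.22 (SE).

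Hspd1 encodes HSP60 and Hspe1 its lid HSP10. They lie head to head on chromosome 1, Hspd1 on the minus strand from 55077835 to 55088243 and Hspe1 on the plus strand from 55088132 to 55091307 (GRCm38), and overlap by 112 bases. The stretch chr1:55088053-55088082 (GRCm38.p6) is shown because it holds runs of 3 repeat units, GAANNTTCNNGAA or TTCNNGAANNTTC, which occur in 0.466% of promoters, and because it belongs to the Hspe1 window and to 1 of the 2 Hspd1 windows. It lies upstream of Hspe1 and inside the annotated span of Hspd1, whose 5′ end is at 55088243. It is read on the plus strand for Hspe1 and on the minus strand for Hspd1, with the overlapping repeats in capitals.
Hspe1: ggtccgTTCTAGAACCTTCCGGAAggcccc
Hspd1: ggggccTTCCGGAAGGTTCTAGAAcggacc
A second Hspd1 window, from 55088194 to 55088493, holds no such repeat. A difference between the changes of the paired genes was not tested. In blastocysts Hspe1 had 192, 202 and 178 reads in the positive and 414, 186 and 194 in the negative columns. The normalised reads were 137, 205 and 203 against 256, 207 and 279, higher in every negative column, though by about 2 normalised reads between the nearest columns. The authors' deposited table gave Hspe1 a log2 fold change of -0.45 ± 0.42 (SE) and an adjusted p of 0.811, and gave Hspd1 -0.06 ± 0.33 (SE). In ES cells Hspe1 had 233 and 163 reads against 159 and 160, or 186 and 215 against 151 and 155 normalised reads. These columns did not overlap either and were higher on the positive side. The authors' deposited table gave ES cells a log2 fold change of 0.32 for Hspe1, with a standard error of 0.25 and an unadjusted p of 0.204. Hspd1 had 666 and 466 reads against 626 and 606, with overlapping columns. Strand is not stated for the blastocyst libraries, so reads from the 112 shared bases could not be told apart there.

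Hsf1, the gene of the transcription factor through which heat raises the inducible members, had no difference beyond its error in either material. In blastocysts it had 83, 152 and 104 reads in the positive and 210, 158 and 44 in the negative columns, or 59.2, 154 and 119 against 130, 176 and 63.3 normalised reads. The columns overlapped over most of their range. The authors' deposited table gave a log2 fold change of -0.16 ± 0.61 (SE) in blastocysts and -0.05 ± 0.32 (SE) in ES cells. In ES cells its reads were 60 and 31 against 66 and 32. Its RNA says nothing of how much of the protein was active.

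**Figure D4:**
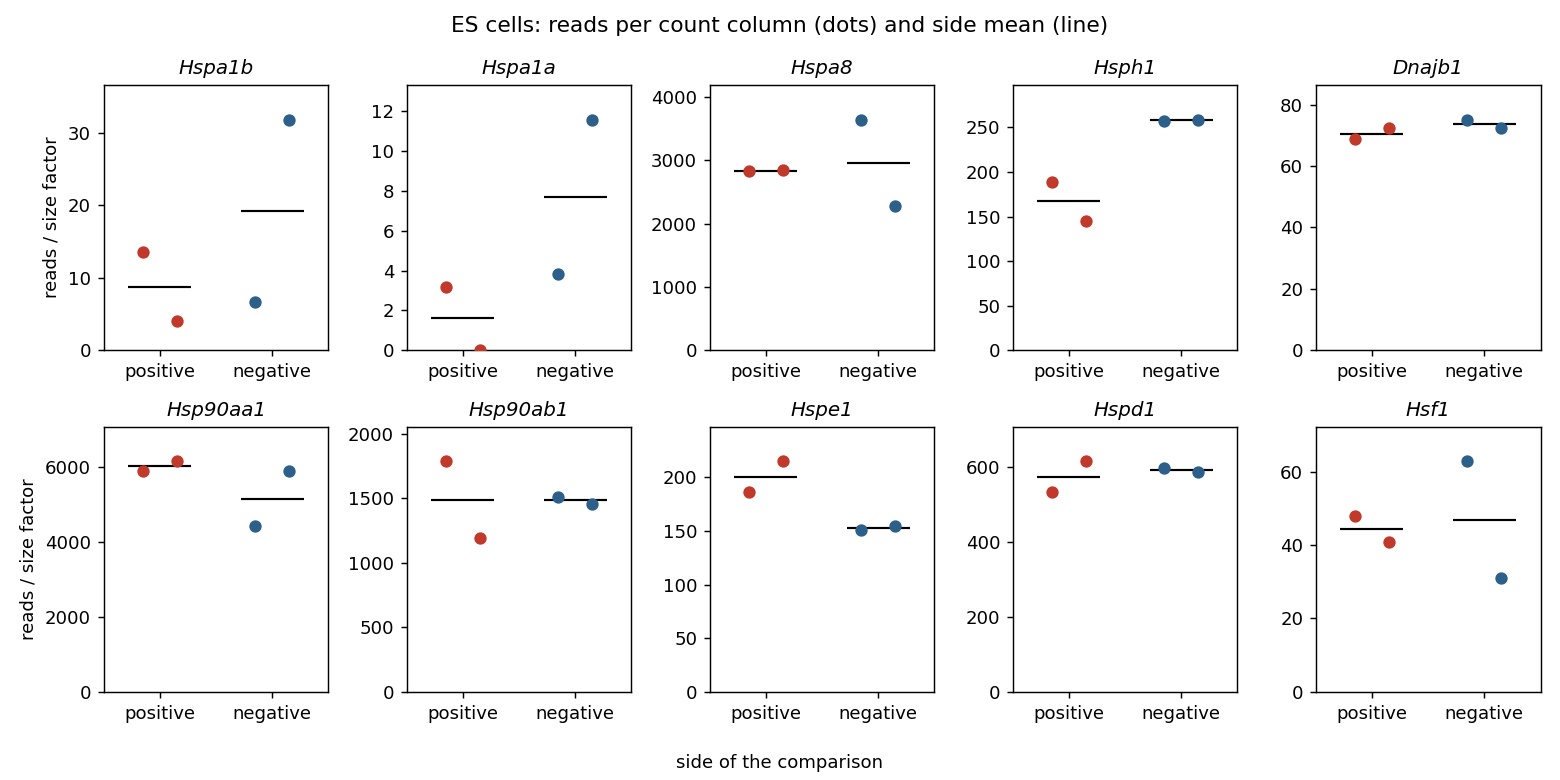
Reads divided by the size factor in each of the 4 ES cell count columns (dots) for all 10 members, by side of the comparison, with the side mean as a line. Hsph1 is higher in both negative columns (258 and 259 against 189 and 145) and Hspe1 in both positive ones (186 and 215 against 151 and 155), while Hspa1b spans 3.95 to 31.9.

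Several members share sequence with processed pseudogenes, some of which were read in the blastocyst table. Of the 50-base windows of the Hspa8 transcript, 73.2% recur in other annotated transcripts, against 58.5% for Hsp90aa1, 44.8% for Hspd1, 36.1% for Hspe1, 4.49% for Hsp90ab1 and 0.407% for Dnajb1. The Hspa8 copies Gm8355, Gm8337, Gm8326 and Gm8141 had means of 107, 182, 136 and 159 and log2 fold changes of -1.25, -0.62, -0.82 and -0.43 in the authors' deposited table. Gm5575 and Gm9436, at means of 40.8 and 7.52, had -0.67 and -2.72 there, and Gm7899, at a mean of 3.38, had 5.20. Of these 7 copies, 6 carried the sign of Hspa8, while 51.7% of all tested genes were negative. Since reads could be shared between the gene and its copies, their signs are not independent of that of Hspa8. Gm15459, which holds 70.0% of the Hspa8 windows, was listed at 0. The Hsp90aa1 copies Gm12346 and Gm5844 had means of 504 and 248 and log2 fold changes of -0.68 and -0.82 there, beside -0.86 for the gene, and the copy Gm5511, at a mean of 43.8, had 0.45. Gm6368, a copy of Hsp90ab1, had a log2 fold change of -1.17 and Gm13498 one of -0.02 in the authors' deposited table. Hspd1-ps3 had 0.25 there at a mean of 111. How the authors' counting divided such reads was not tested, and the means of the copies are small beside those of their parent genes.

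Around these genes, the wider chaperone network was described by 67 further genes in 9 groups, chosen with earlier results of these data known. None passed the test in either material, with 0 of 62 tested genes called in blastocysts and 0 of 57 in ES cells, beside the 0.0986% and 0.261% over all genes. In blastocysts 5 of the 62, 8.06%, had an unadjusted p-value under 0.05, 4 negative and 1 positive, against 6.21% of all genes. In total 41 were negative and 21 positive, with a median of -0.28 against -0.04 over all genes tested. In ES cells 1 of 57, 1.75%, was at that threshold, on the positive side where 2.21% of all genes lay, and 39 were positive and 18 negative, with a median of 0.07. The 8 genes of the chaperonin TRiC, the cytosolic ring that folds actin and tubulin, were all negative in blastocysts, from -0.42 to -0.05 in the authors' deposited table, and none had an unadjusted p-value under 0.05. In ES cells 6 of the 7 TRiC genes listed were positive, at a median of 0.08.

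The 5 blastocyst network genes with the smallest unadjusted p-values, among those with a mean of at least 50, came from 5 of the 9 groups. Dnaja1, an HSP40 cochaperone of HSC70, had a mean of 551 and a log2 change of -1.07 ± 0.38 (SE) and an adjusted p of 0.476 in the authors' deposited table. Stip1, which links HSP70 to HSP90, had -0.72 ± 0.30 (SE) and an adjusted p of 0.667 in the authors' deposited table. Both signs were those of Hspa8 and Hsp90aa1, as were those of 41 of the 62 tested network genes, while 21 were positive. Of the tested HSP40 cochaperones 5 were negative and 4 positive, and of the HSP90 cochaperones 8 were negative and 3 positive. Clpp, the protease of the mitochondrial matrix, had 114, 70 and 18 reads in the positive and 504, 66 and 194 in the negative columns, which overlap. The authors' deposited table gave Clpp a log2 fold change of -1.94 ± 0.67 (SE), an unadjusted p of 0.00389 and an adjusted one of 0.414. Grpel2, an exchange factor of mitochondrial HSP70, had 148, 178 and 214 reads against 46, 90 and 36, with no overlap. Its log2 fold change in the authors' deposited table was 1.56 ± 0.63 (SE) and an adjusted p of 0.613. Hspa14, an HSP70 relative bound to ribosomes, had -0.79 with an unadjusted p of 0.0558 in the authors' deposited table. Dnajb5, at a mean of 6.65, had -6.26 and an unadjusted p of 0.0272 there and was named after its values were seen.

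In ES cells the small heat shock protein gene Hspb8 was the 1 network gene at the unadjusted threshold. It had 159 and 118 reads against 89 and 63, or 127 and 155 against 84.6 and 60.9 normalised reads, without overlap. The authors' deposited table gave Hspb8 a log2 fold change of 0.73 ± 0.28 (SE), an unadjusted p of 0.0102 and an adjusted one of 0.498. Hspb1, another small heat shock protein gene, lay the other way at -0.43 with an unadjusted p of 0.0769 in the authors' deposited table. Hsf2, a second heat shock factor, had 188 and 168 reads against 114 and 129 and a log2 fold change of 0.53 with an unadjusted p of 0.05002 in the authors' deposited table. The HSP90 cochaperones Ptges3 and Chordc1 had 0.32 and 0.34 there, with unadjusted p-values of 0.139 and 0.193.

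**Figure D5:**
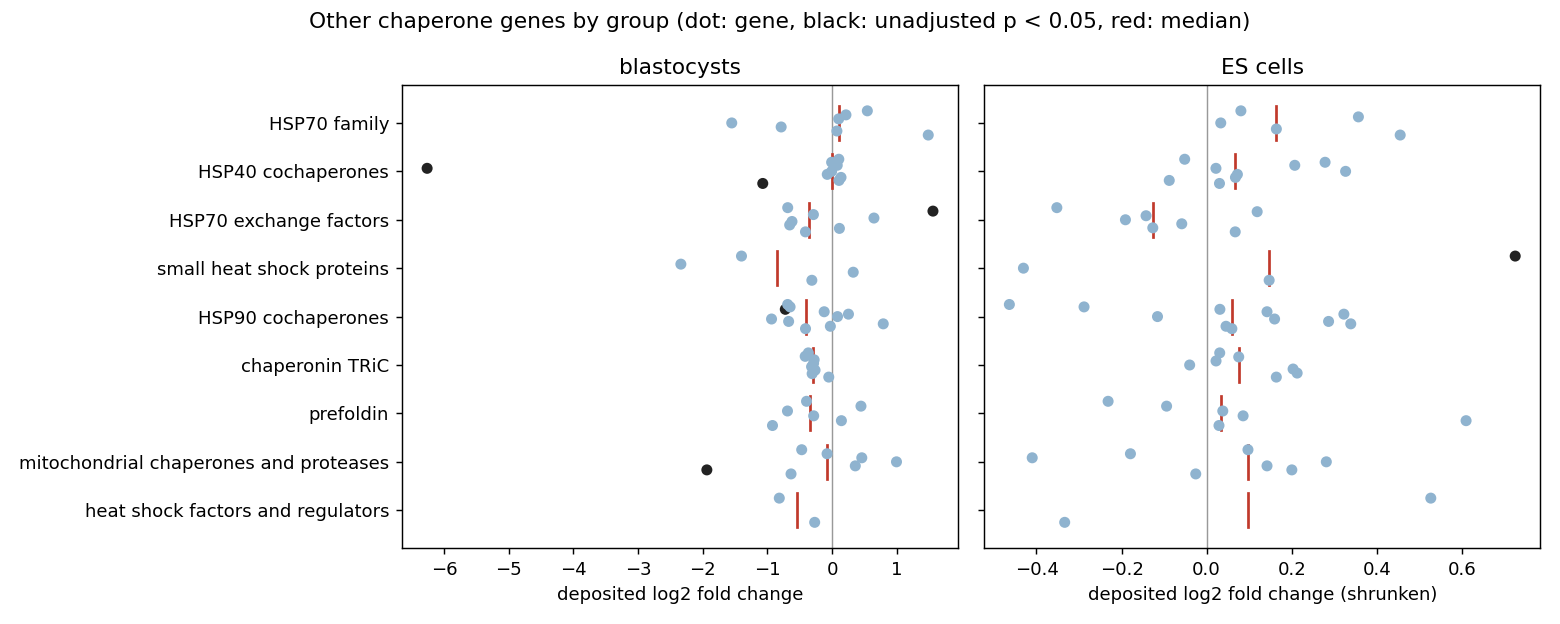
Log2 fold change in the authors' deposited tables of each tested gene of the wider chaperone network (dots) in 9 groups, in blastocysts (left) and ES cells (right), with the group median as a red line and genes at an unadjusted p-value under 0.05 in black. All 8 TRiC genes are negative in blastocysts, and Hspb8 at 0.73 is the 1 black dot in ES cells.

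Genes that mark the cell types of the embryo, also chosen with earlier results known, gave the following values in the blastocyst comparison. Of 8 pluripotency markers, 3 had an unadjusted p-value under 0.05, all negative: Pou5f1 at -1.21, Nanog at -1.93 and Tdgf1 at -1.75 in the authors' deposited table, with a list median of -0.33. Of 8 trophectoderm markers 4 did, with Gata3 at 0.52 and Krt7 at 1.33 on one side and Krt8 at -0.87 and Krt18 at -0.63 on the other in the authors' deposited table. Of 6 primitive endoderm markers 0 did. None of these 22 had an adjusted p-value under 0.05. These values stand beside those of Hspa8, Hsph1 and Hsp90aa1, in which their part was not tested. No gene within 10 kb of a member, apart from members themselves, had an unadjusted p-value under 0.05 in either of the authors' deposited tables. Slc35b2, 106 bases from Hsp90ab1, had log2 fold changes of 0.13 and 0.28 in the authors' deposited tables.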

How the data were processed

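RNA of 12 samples was sequenced. Per the submitters' processing notes, STAR 2.4.0b, SAMtools, bedtools, featureCounts, Subread 2.0.1 and DESeq2 1.34.0 were used, with GRCm38; which step used which was not given in the sources used here. The members and gene lists were chosen with earlier results of these data known. Each material has 1 deposited table of comparison results, with 0 columns of per-sample values. Per the file headers, the first value is the authors' mean of normalised reads over the libraries, a signal. The change and its error were deposited in log2 units. A score, the Wald statistic, was deposited beside them. The p-value columns hold the deposited two-sided Wald p-value and its adjusted value, and Benjamini-Hochberg adjustment over the tested genes gave back the latter. The design assumed counts; its fallback, the authors' own statistics at an adjusted p-value under 0.05, was used instead.

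Each mean was solved for whole reads per column (relative misfit up to 6e-15). Where several solutions were possible, the only one that returned the deposited log2 fold change from the dispersion implied by its standard error was taken (misfit under 2e-05). For Hspa1a and Hspa1b in blastocysts and for Dis3l, Col1a1 and Thy1 in ES cells, where the mean had 1 solution, that fit did not return the deposited values to that precision. For Hspa1a and Hspa1b a fit with fitted counts held at or above 0.5 reads did. ES cell fold changes fitted a prior with a standard deviation of 0.664 (log2), so they are shrunken. The calculations were tested on simulated data. The simulated reads left no column empty, so recovery with empty columns, as for Hspa1a and Hspa1b in blastocysts, was not covered. Ratio intervals are exact 95% binomial intervals and, since PCR copies were not removed by molecular identifiers, cover counting error only. Transcripts came from GENCODE M21 and promoters, found for 6 of the 10 members, from RefSeq.

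Named were the members, Dis3l, any called network gene, per table the 5 network genes of smallest p-value at a mean of at least 50, near-identical copies and neighbours within 10 kb. Python 3.11.15, pandas 2.3.3, numpy 2.4.6, scipy 1.17.1 and matplotlib 3.10.9 were used.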

Additional observations from a re-analysis of the deposited data

Results flagged for a closer look

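Hspe1 and Dnajb1 had sides that did not overlap in either material and that lay opposite ways in the 2 tables. With so few columns, non-overlap alone does not mark a difference, and its share over all genes was not computed. The log2 ratio of the recovered reads of Hspe1 was -0.44 in blastocysts, whereas ES cells gave 0.39. For Dnajb1 the ratio was 0.35 in blastocysts, whereas ES cells gave -0.065, with 72.43 and 72.47 normalised reads in the nearest columns. The difference between the materials was not tested, and which genotype is on which side of either table is not stated, so opposite signs do not show opposite effects of the knockout.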

How the results depend on the processing

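The count of called genes stayed at 0 for the heat shock genes and for the network, in both materials, under the stricter threshold of 0.01, a minimum absolute log2 fold change of 1, adjustment over every gene with a p-value, restriction to means of at least 50 and division of the statistics by their robust SD. Under the last 3, the lowest adjusted p-value ran from 0.377 to 0.806 for the members in blastocysts (Hspa8) and from 0.468 to 0.971 in ES cells (Hsph1), and from 0.404 to 0.840 (Clpp) and from 0.219 to 0.601 (Hspb8) for the network. ES cell network genes at an unadjusted p-value under 0.05 went from 1 to 3 after division by the robust SD. Centring, undoing the shrinkage and taking ratios of recovered reads kept the sign of every member value they could be computed for. This held for 15 of 15 values in blastocysts and 30 of 30 in ES cells, but these settings could hardly turn a sign. Centring moved values by only 0.0030 in blastocysts and 0.0025 in ES cells, and the shrinkage acts towards 0. Reads with several solutions were chosen to return the deposited fold change. Undoing the shrinkage took Hspa1a in ES cells from -0.32 to -2.13 and Hspa1b from -0.35 to -1.09. The order of the members by level per kilobase was the same with the union of exons and with the longest protein-coding transcript, the latter chosen after seeing the data. With the union of exons the level per kilobase of Hsf1 went from 37.3 to 16.5 in blastocysts and from 14.6 to 6.42 in ES cells, that of Hspe1 from 223 to 146 and from 183 to 120, and that of Hsph1 from 184 to 121 and from 44.6 to 29.3.

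Leaving out 1 count column kept the sign in 26 of 28 cases in blastocysts and 32 of 39 in ES cells. The blastocyst cases cover Hspa1a, Hspa1b, Dnajb1, Hspe1 and Hsf1 only, and so not Hspa8, Hsph1 or Hsp90aa1. Removals that left a side without reads gave no ratio and were not counted. The sign turned for Hsf1 in blastocysts, whose log2 ratio ran from -0.47 to 0.20 over these removals (0.15 without the first positive column, 0.20 without the second negative one). In ES cells it turned for Hspa1b, which ran from -2.29 to 0.40 (highest without the second negative column), for Hspa8, from -0.36 to 0.32 (highest without the first negative column), and for Hspd1, from -0.15 to 0.056 (highest without the first positive column). It also turned there for Hsp90ab1, from -0.32 to 0.27 (-0.32 without the first positive column, -0.022 without the second negative one), and for Hsf1, from -0.50 to 0.52 (0.032 without the second positive column, 0.52 without the first negative one). Each of these leaves a side with fewer columns, and the cause was not tested further. No paired analysis was possible because the columns carry no replicate numbers. Leaving out replicates over all genes, a replicate block and edgeR or DESeq2 on counts were not run, because reads per column were recovered for part of the genes only. In blastocysts 1 read adds 0.10 to 0.24 to a mean, which stands at 3.83 for Hspa1a and 6.46 for Hspa1b, and blastocyst means above 220 were not solved.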
